A study of Oryza sativa with 12 samples.

Results

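In shoots of 3 rice mutants of gibberellin signalling, 139 genes had transcript signals at least 2-fold below the parental cultivar in each mutant at once. They were chosen by a rule on these measurements. For each gene and line the mean of log2 signal over the arrays was taken, and a gene entered when gid1-3, gid2-1 and slr1 each lay at least 1 log2 unit below Taichung 65 (T65), with a T65 mean of at least 7.6. Signals below 1 were set to 1, and a gene was read from its brightest probe set among those paired with that gene alone. The 139 genes are 0.776% of the 17905 genes represented in this way and 1.03% of the 13536 whose T65 mean reached 7.6. A further 3 genes passed the numbers (PIP1-3, PIP2-4 and HSP18.6) and were left out because they belong to families named in the rule. Only 21 of the 139 carry a gene name in the gene table; the other 118 are known here by their LOC number alone, and no function is given for them.

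The study compared 4 lines on an Affymetrix rice array, with 3 arrays per line, each labelled as a biological replicate, so 12 arrays in all. T65 was the parental cultivar and control. The mutants gid1-3, gid2-1 and slr1 (k1001) were all in the T65 background, and all plants were grown in a greenhouse and sampled as shoots 5 weeks after germination. From the labels alone, the slr1 allele could be one of lost or of gained function, and they do not give how many plants entered a replicate, or which part of the shoot was taken. Values below are scaled probe-set signals on a linear scale for the single arrays. Changes are differences of mean log2 signal, with the standard error (SE) of a limma fit over all arrays, so that -1 stands for a 2-fold lower signal.

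Gibberellins are growth hormones of plants. In rice the hormone binds the soluble receptor GID1, the loaded receptor binds the DELLA protein SLR1, a nuclear repressor of gibberellin responses, and the F-box protein GID2 brings SLR1 to a ubiquitin ligase for degradation. Rice plants that lack GID1 or GID2 function are severe dwarfs with dark green, broad leaves, plants that lack SLR1 are tall and slender, and SLR1 proteins that resist degradation give dwarfs.

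Because the rule read each mutant against T65, the changes against T65 are a description and carry no test. The contrasts between mutants do not involve T65 and were tested. They are still not free of the rule, which holds each gene past the same limit in all 3 lines and read the same mutant arrays, so they show how far past that limit each line lay. A difference was called at a Benjamini-Hochberg adjusted p under 0.05 over all 57194 probe sets.

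The 139 genes were of ordinary brightness in T65 and lay several fold lower in the mutants. Their mean signals in T65 ran from 196.5 to 16743, with a median of 1277. The median was 312 in gid1-3, 248 in gid2-1 and 464 in slr1. On the log2 scale their median T65 level was 10.32, against 10.18 over all genes with a T65 mean of at least 7.6. The arrays of a line were close to each other: the mean log2 signal of the 139 genes was 10.38 to 10.40 on the T65 arrays, 8.06 to 8.07 in gid1-3, 7.99 to 8.04 in gid2-1 and 8.81 to 8.85 in slr1. For no gene did an array of a mutant reach into the range of the T65 arrays. The rule favours this separation, its share over all genes was not counted, and nothing is read from it.

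The size of the difference from T65 was not the same in the 3 mutants. The median change of the 139 genes was -2.03 in gid1-3, -1.98 in gid2-1 and -1.42 in slr1, while the medians over all 13536 genes of at least that T65 level were -0.06, -0.03 and -0.07. In gid1-3, 32 genes lay at least 3 log2 units below T65, in gid2-1 30 genes did, and in slr1 ASMT alone did. Some of these had line means below the reporter level, the 95th percentile of the array's reporter control probe sets, where a change is only a bound. With such means raised to that level the counts in gid1-3 and gid2-1 were 28 and 28. Signals were lowest in gid2-1 for 66 genes, in gid1-3 for 58 and in slr1 for 15, and the smallest of the 3 differences was that of slr1 for 91. Of the 6 possible orders of the mutants the most frequent, with 55 genes, ran upward from gid2-1 through gid1-3 to slr1. In 4 genes both gid mutants lay below the reporter level, and their order in these counts is that of unresolved signals. In the limma fit gid1-3 was called below T65 for 137 of the 139, gid2-1 for 137 and slr1 for 136. The background shares of probe sets called lower were 15.4%, 12.4% and 10.8%, and since the rule used these contrasts nothing is read from the counts. Among all 17905 genes, 1432 were called lower in all 3 mutants, which is 8%, so most genes lower in every mutant had smaller changes than the rule asked for.

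**Figure D1:**
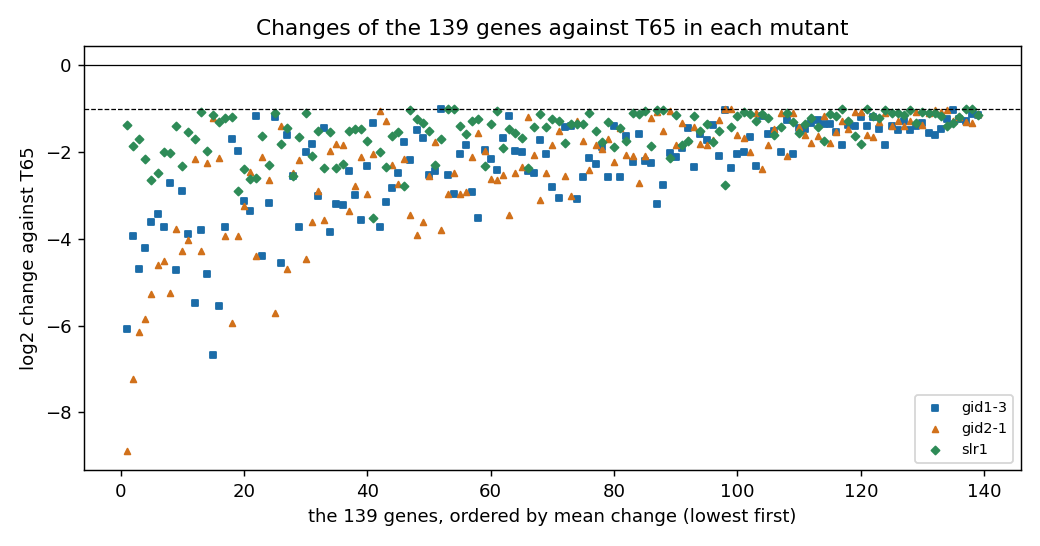
Log2 change against T65 of each of the 139 genes (y axis) in gid1-3 (squares), gid2-1 (triangles) and slr1 (diamonds), with genes ordered along the x axis by their mean change; the dashed line is the limit of -1 set by the rule. Line means below the reporter level are drawn as measured and have only a bound. The slr1 points stay above -3 except for ASMT at -3.52, and among means above that level gid1-3 reaches -6.08 and gid2-1 -7.24.

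Phosphate transport and signalling were represented by PHO1-2, SPX2 and LPR2. PHO1-2 belongs to the PHO1 family of phosphate exporters, which load phosphate into the xylem, and in rice it is the member known for moving phosphate from root to shoot. It measured 3454, 3744 and 3874 on the T65 arrays, 329.7, 313 and 292 in gid1-3, 856, 891 and 823 in gid2-1 and 1293, 1441 and 1304 in slr1. All arrays of a line were separate from those of every other line, with gid1-3 lowest and slr1 nearest to T65. Its changes against T65 were -3.57 ± 0.07 in gid1-3, -2.11 ± 0.07 in gid2-1 and -1.46 ± 0.07 in slr1. The gid1-3 signal was below that of gid2-1 (gid1-3 minus gid2-1 -1.46 ± 0.07, limma adjusted p = 1.1e-09), and slr1 was above gid1-3 (slr1 minus gid1-3 2.11 ± 0.07, limma adjusted p = 1e-11). The size rests on 1 probe set: another PHO1-2 probe set of lower signal gave -0.37, -0.67 and -0.51 in the 3 mutants, and the dimmest gave -1.27, -0.19 and 0.09.

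SPX2 encodes an SPX domain protein, one of the phosphate sensors that hold back the transcription factor PHR2 when phosphate is plentiful. Its signals were 901, 945 and 795 on the T65 arrays, 341, 322 and 356 in gid1-3, 304, 262 and 405 in gid2-1 and 367, 362 and 357 in slr1. All mutant arrays were below the T65 arrays, and no difference between mutants was called (limma adjusted p from 0.37 to 0.73). LPR2 is a multicopper oxidase related to LOW PHOSPHATE ROOT proteins, known in Arabidopsis for the root response to low phosphate. It gave 541, 499 and 482 on the T65 arrays, 140.5, 157 and 166 in gid1-3, 139, 112 and 178 in gid2-1 and 245, 163 and 198 in slr1. The arrays of all 3 mutants overlapped each other and lay below T65. A difference between slr1 and gid2-1 (0.50 ± 0.18 on the log2 scale) sat at the threshold, with a limma adjusted p that rounds to 0.05, and was lost under 14 of 20 other settings.

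Nitrogen uptake and assimilation were represented by NIA1, DUR3 and AMT1-2. NIA1 encodes nitrate reductase, the first enzyme of nitrate assimilation. Signals of NIA1 were 3884, 4091 and 3837 on the T65 arrays, 1295, 1158 and 1122 in gid1-3, 474, 407 and 502 in gid2-1 and 1869, 1788 and 1758 in slr1. The lines did not overlap, and gid2-1 was lowest. Changes against T65 were -1.73 ± 0.08 in gid1-3, -3.10 ± 0.08 in gid2-1 and -1.13 ± 0.08 in slr1. The gid2-1 signal was lower than that of gid1-3 (gid1-3 minus gid2-1 1.37 ± 0.08, limma adjusted p = 6.1e-09) and than that of slr1 (slr1 minus gid2-1 1.97 ± 0.08, limma adjusted p = 5.7e-11). A second, dim NIA1 probe set did not show the difference, with changes of 0.01, 0.20 and 0.40.

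DUR3, the high-affinity urea transporter, had its lowest level in gid1-3. Its signals were 824, 763 and 883 on the T65 arrays, 103, 111 and 69.6 in gid1-3, 309.6, 356 and 355 in gid2-1 and 142, 179 and 169 in slr1. Again no arrays of different lines overlapped, and gid2-1 stayed closest to T65. The differences from T65 were -3.15 ± 0.16 in gid1-3, -1.28 ± 0.16 in gid2-1 and -2.34 ± 0.16 in slr1. Between mutants, gid1-3 lay below gid2-1 (-1.87 ± 0.16, limma adjusted p = 4.7e-07), and slr1 lay below gid2-1 (-1.06 ± 0.16, limma adjusted p = 0.00011) and above gid1-3 (0.81 ± 0.16, limma adjusted p = 0.0011). AMT1-2, an ammonium transporter that the gene table also lists as AMT1-3, was the dimmest named gene in T65. It read 189, 186 and 214 on the T65 arrays, 81.5, 89.2 and 78.8 in gid1-3, 81.6, 97.9 and 109 in gid2-1 and 64.2, 80.8 and 80.5 in slr1. The gid1-3 arrays overlapped those of both other mutants, and none of the differences between mutants was called (limma adjusted p from 0.25 to 0.67).

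Of the cation transporters, HAK27 is a member of the HAK family of potassium transporters. Its arrays gave 3278, 3436 and 3476 on the T65 arrays, 553, 583 and 633 in gid1-3, 406, 470.0 and 425 in gid2-1 and 1662, 1655 and 1779 in slr1. The slr1 arrays lay between T65 and the gid mutants, clear of both. HAK27 was the gene closest to the limit of the rule, since its slr1 change was -1.0 ± 0.07, beside -2.53 ± 0.07 in gid1-3 and -2.97 ± 0.07 in gid2-1. The slr1 signal was above that of gid1-3 (1.53 ± 0.07, limma adjusted p = 3.4e-10) and of gid2-1 (1.97 ± 0.07, limma adjusted p = 2.2e-11).

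CAX1a exchanges calcium for protons across the vacuolar membrane. Signals of CAX1a were 5109, 5456 and 5349 on the T65 arrays, 1987, 1783 and 2056 in gid1-3, 402, 559 and 404 in gid2-1 and 952, 1080.5 and 1051 in slr1. This gene had another order of the lines, with gid1-3 nearest to T65, slr1 next and gid2-1 lowest, and no overlap between lines. Its changes were -1.45 ± 0.11 in gid1-3, -3.56 ± 0.11 in gid2-1 and -2.37 ± 0.11 in slr1. The differences between the mutants were called in each pair: gid1-3 over gid2-1 (2.11 ± 0.11, limma adjusted p = 1.6e-09), slr1 under gid1-3 (-0.92 ± 0.11, limma adjusted p = 6.8e-06) and slr1 over gid2-1 (1.19 ± 0.11, limma adjusted p = 4.5e-07). MHX1 is related to the vacuolar magnesium and zinc exchanger MHX of Arabidopsis. It measured 3372, 3699 and 3619 on the T65 arrays, 630.3, 729 and 631 in gid1-3, 318, 376 and 354 in gid2-1 and 1180.1, 1205 and 1338 in slr1. The order was the common one, upward from gid2-1 through gid1-3 to slr1, with changes of -2.43 ± 0.08 in gid1-3, -3.35 ± 0.08 in gid2-1 and -1.52 ± 0.08 in slr1. A second MHX1 probe set, which can also bind related transcripts, gave -2.34, -3.14 and -1.5.

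Sugar and starch genes included the largest difference of a named gene. SWEET2B belongs to the SWEET family of sugar transporters, which let sugars pass along their gradient. Its arrays read 2360.0, 2341 and 2394 on the T65 arrays, 353, 307 and 430.0 in gid1-3, 67.5, 77.1 and 46.0 in gid2-1 and 518, 611 and 622 in slr1. The gid2-1 arrays stood far below those of the other mutants. Against T65 the changes were -2.72 ± 0.16 in gid1-3, -5.25 ± 0.16 in gid2-1 and -2.02 ± 0.16 in slr1, which for gid2-1 is 38.1-fold. The difference between gid1-3 and gid2-1 was 2.53 ± 0.16, limma adjusted p = 2e-08, and that between slr1 and gid2-1 was 3.23 ± 0.16, limma adjusted p = 7.6e-10. The probe set used can bind related transcripts, and a second SWEET2B probe set without that mark gave -2.78, -4.57 and -1.89.

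SS1, soluble starch synthase I, extends the short chains of amylopectin. It gave 2518, 2553 and 2670.0 on the T65 arrays, 981, 926 and 926 in gid1-3, 730.1, 836 and 764 in gid2-1 and 680.5, 772 and 852 in slr1. The slr1 and gid2-1 arrays overlapped, while those of gid1-3 lay above both. The changes against T65 were -1.45 ± 0.08 in gid1-3, -1.73 ± 0.08 in gid2-1 and -1.75 ± 0.08 in slr1. SS1 was higher in gid1-3 than in gid2-1 (0.28 ± 0.08, limma adjusted p = 0.02) and lower in slr1 than in gid1-3 (-0.30 ± 0.08, limma adjusted p = 0.0095), but these calls were lost under 5 and 3 of 20 other settings.

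Further named enzymes belong to pigment, vitamin and methylated indole metabolism. PSY2 is a phytoene synthase, the enzyme of the first committed step of carotenoid synthesis. Its signals were 4376, 4371 and 4257 on the T65 arrays, 1101, 1059 and 1123 in gid1-3, 200.2, 191 and 199 in gid2-1 and 2122, 1975 and 1979 in slr1. The arrays of a line lay close together and the lines stood apart. Against T65 PSY2 differed by -1.99 ± 0.06 in gid1-3, -4.46 ± 0.06 in gid2-1 and -1.10 ± 0.06 in slr1. The gid2-1 level was below that of gid1-3 (2.48 ± 0.06, limma adjusted p = 5.9e-13) and below that of slr1 (3.36 ± 0.06, limma adjusted p = 1.3e-14). PDX12 belongs to the PDX1 family, the synthase subunit of vitamin B6. It measured 4735, 4953 and 4688 on the T65 arrays, 941, 949.8 and 982 in gid1-3, 631, 604 and 606 in gid2-1 and 1319, 1623 and 1386 in slr1. The order upward from gid2-1 through gid1-3 to slr1 held without overlap, with changes of -2.32 ± 0.07 in gid1-3, -2.96 ± 0.07 in gid2-1 and -1.74 ± 0.07 in slr1.

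ASMT and ASMT3 are named as N-acetylserotonin methyltransferases, which in rice make melatonin. ASMT was the gene with the largest difference in slr1. Its arrays gave 5609.7, 5715 and 5736 on the T65 arrays, 2296, 2205 and 2258 in gid1-3, 1293, 1558 and 1291 in gid2-1 and 465, 541 and 481 in slr1. The order of the mutants differed from the common one in the place of slr1: slr1 was lowest, gid2-1 next and gid1-3 highest, without overlap. Changes were -1.34 ± 0.08 in gid1-3, -2.05 ± 0.08 in gid2-1 and -3.52 ± 0.08 in slr1. The slr1 level was below gid1-3 (-2.19 ± 0.08, limma adjusted p = 1.4e-11) and below gid2-1 (-1.48 ± 0.08, limma adjusted p = 1e-09). ASMT3 had another pattern, with 239.6, 235 and 270.4 on the T65 arrays, 37.7, 33.3 and 24.0 in gid1-3, 52.2, 35.6 and 25.5 in gid2-1 and 76.5, 95.2 and 97.9 in slr1. Its gid1-3 and gid2-1 means lay below the reporter level, which is the highest 95th percentile of the reporter control probe sets on a line's arrays (52.2 in gid1-3, 52.1 in gid2-1 and 51.6 in slr1). The size of those differences is therefore a bound, at least 4.75-fold in gid1-3 and at least 4.76-fold in gid2-1, with 2.77-fold in slr1.

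GRXC7 is a glutaredoxin, a small thiol oxidoreductase that uses glutathione. Its signals were 3607, 3932 and 3923 on the T65 arrays, 681, 672 and 754 in gid1-3, 1111, 1144 and 1088 in gid2-1 and 773, 785 and 778 in slr1. The gid1-3 and slr1 arrays lay close to each other and gid2-1 above both. GRXC7 was higher in gid2-1 than in gid1-3 (gid1-3 minus gid2-1 -0.67 ± 0.06, limma adjusted p = 1.3e-06) and than in slr1 (slr1 minus gid2-1 -0.52 ± 0.06, limma adjusted p = 1.2e-05), while slr1 minus gid1-3 was 0.15 ± 0.06 and not called (adjusted p = 0.095). BASS3 belongs to a plant family named after the bile acid and sodium symporters of animals. It read 358, 327 and 348 on the T65 arrays, 164, 123 and 139 in gid1-3, 150.4, 121 and 148 in gid2-1 and 198, 174 and 146 in slr1. The mutants overlapped each other, and no difference between them was called (limma adjusted p from 0.21 to 0.96).

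Besides SPX2, the regulators among the members with a name included RS2, MYBAS2, HSF05 and CHARK. RS2 is the rice counterpart of ROUGH SHEATH2, a MYB protein that in maize keeps KNOX genes silent in leaf primordia. Its signals were 2422, 2429 and 2392 on the T65 arrays, 887, 814 and 822 in gid1-3, 897, 759 and 982 in gid2-1 and 855, 808 and 732 in slr1. The arrays of the mutants overlapped one another, with none near the T65 arrays. The changes were -1.52 ± 0.09 in gid1-3, -1.47 ± 0.09 in gid2-1 and -1.60 ± 0.09 in slr1, and no pair of mutants was called apart (limma adjusted p from 0.33 to 0.76). A second RS2 probe set gave -0.72, -0.48 and -1.0.

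MYBAS2 is a MYB transcription factor. It gave 683, 659.8 and 672 on the T65 arrays, 208, 322 and 226 in gid1-3, 230.5, 255 and 262 in gid2-1 and 262, 236 and 188 in slr1. The mutant arrays overlapped in every pair, and the changes were -1.44 ± 0.16 in gid1-3, -1.43 ± 0.16 in gid2-1 and -1.57 ± 0.16 in slr1 (limma adjusted p between mutants from 0.63 to 0.98). HSF05, also named HSFC2A, is a heat shock transcription factor of class C. Its arrays varied more, with 497, 534 and 612 on the T65 arrays, 192, 214 and 128 in gid1-3, 137, 174 and 108 in gid2-1 and 164, 336 and 285 in slr1. Arrays of all 3 mutants overlapped. HSF05 was called higher in slr1 than in gid2-1 (0.87 ± 0.25, limma adjusted p = 0.018), a call lost under 4 of 20 other settings.

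CHARK is a receptor-like kinase with a CHASE domain, the part by which cytokinin receptors bind their hormone. Its signals were 331, 277 and 281 on the T65 arrays, 69.3, 83.9 and 94.7 in gid1-3, 134, 121 and 111 in gid2-1 and 161, 150.1 and 134 in slr1. The gid1-3 arrays lay below those of the other mutants, and those of gid2-1 and slr1 overlapped. CHARK was higher in slr1 than in gid1-3 (0.85 ± 0.17, limma adjusted p = 0.0012). It was lower in gid1-3 than in gid2-1 (-0.57 ± 0.17, limma adjusted p = 0.027), a call lost under 7 of 20 other settings.

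**Figure D2:**
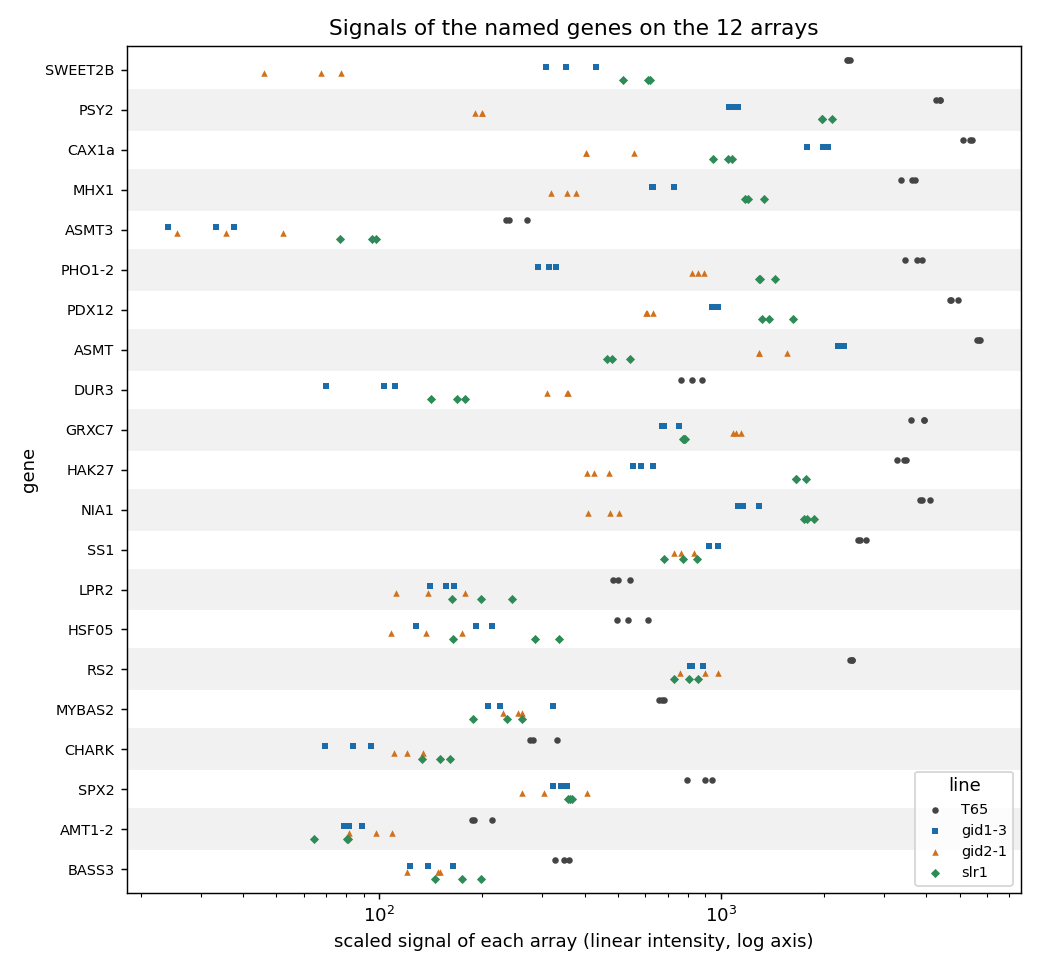
Scaled signal of each array (x axis, linear intensity on a log axis) for the 21 named genes (y axis, ordered by mean change, the lowest at the top) in T65 (circles), gid1-3 (squares), gid2-1 (triangles) and slr1 (diamonds). No mutant symbol overlaps the T65 circles, a separation that the rule favours. SWEET2B, PSY2 and CAX1a spread widely between mutants, while RS2, MYBAS2, SPX2, AMT1-2 and BASS3 do not.

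Tested across the mutants, the 139 genes differed between gid1-3 and gid2-1 in both directions in like numbers, and slr1 lay mostly above each gid mutant. Between gid1-3 and gid2-1, 90 genes were called (64.7%), 46 of them higher and 44 lower in gid1-3, with a median difference of 0.02. The background was 21.1% of all probe sets and 48.3% of the 13536 genes of at least the same T65 level, so the share called among the 139 was above both. The rule chose genes with large changes in each mutant, which favours calls between mutants. Whether the higher share goes beyond that was not tested. Of the 13536, 21.5% were called higher and 26.9% lower in gid1-3. Between slr1 and gid1-3, 93 genes were called (66.9%), 79 of them higher and 14 lower in slr1. Here the background was 29% of all probe sets and 64% of the 13536 genes, and the share called was near the latter. Of the 13536 genes, 31.3% were called higher and 32.7% lower in slr1. These genes were not held below T65 in every mutant by a rule. Whether the uneven direction of the 139, here and against gid2-1, goes beyond what the rule brings was therefore not tested. The median difference was 0.57 among the 139 and -0.03 among the 13536. Between slr1 and gid2-1, 86 genes were called (61.9%), 71 higher and 15 lower in slr1, with background shares of 27.3% of all probe sets and 62.2% of the 13536 genes. Of the latter 29% were called higher and 33.2% lower, and the median differences were 0.48 and -0.04. In the 3 contrasts, which share arrays with one another, 50, 46 and 49 genes were both called and at least 2-fold apart. With means below the reporter level raised to it the counts were 44, 44 and 48. The share of all genes called and this far apart was not counted.

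Calls were also counted per gene. Of the 139, 43 were called in all 3 contrasts, 65 in 2, 10 in 1 and 21 in none. These shares were not counted over the 13536 genes, of which 48.3%, 64% and 62.2% were called in the single contrasts. Nothing particular to the 139 is read from them. The 21 include RS2, MYBAS2, SPX2, AMT1-2 and BASS3. By size alone, 29 genes had changes within 0.5 log2 units of each other in all 3 mutants, and 36 had changes spread over 2 or more (30 with means below the reporter level raised to it). LOC4351087 had the lowest mean change among the 29. It measured 557, 639 and 571 on the T65 arrays, 119, 93.7 and 89.7 in gid1-3, 108, 82.2 and 131 in gid2-1 and 130.5, 101 and 77.0 in slr1. Its arrays overlapped in every pair of mutants, at changes of -2.55 ± 0.22 in gid1-3, -2.48 ± 0.22 in gid2-1 and -2.55 ± 0.22 in slr1.

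**Figure D3:**
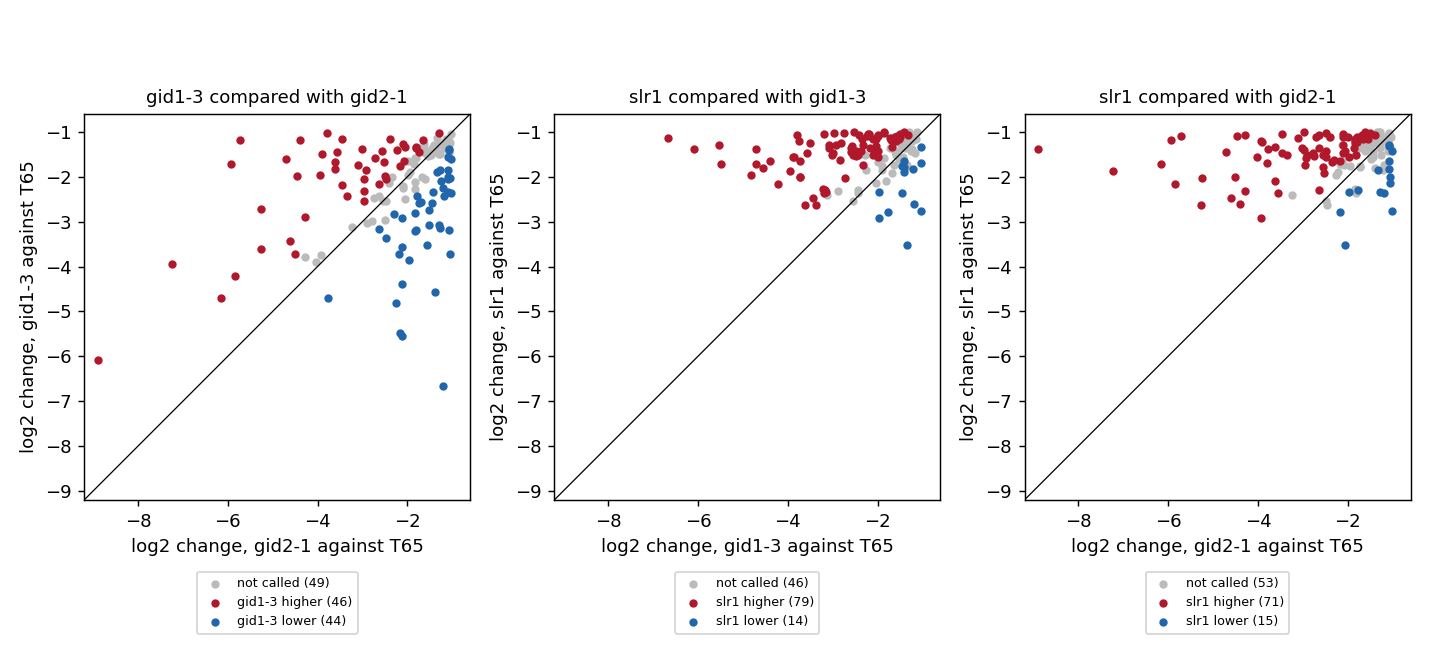
Each panel sets the log2 change against T65 of the 139 genes in one mutant (y axis) against that in another (x axis); the line marks equal changes, and colours give the limma call between the 2 mutants. Points spread to both sides of the line for gid1-3 and gid2-1 (46 higher, 44 lower) and lie mostly above it for slr1 (79 and 71 higher, 14 and 15 lower).

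The lowest mean changes were those of 6 genes without a name, and 3 of them lay below the reporter level in gid2-1. LOC4342551 measured 6697, 6702 and 6385 on the T65 arrays, 162, 73.7 and 77.0 in gid1-3, 11.4, 20.6 and 11.5 in gid2-1 and 3009, 2825 and 1902 in slr1. Its gid2-1 mean lay below the reporter level, so the difference from T65 was at least 127-fold there, beside 67.8-fold in gid1-3 and 2.61-fold in slr1. The slr1 signal was above gid1-3 by 4.70 ± 0.28, limma adjusted p = 4.3e-09. LOC4326757, the brightest of the 139 in T65, gave 16665, 16068 and 17496 on the T65 arrays, 1145, 1008 and 1117 in gid1-3, 139, 116 and 84.2 in gid2-1 and 4345, 5099 and 4319.5 in slr1. The lines were again in the order gid2-1, gid1-3, slr1 and T65 with no overlap, and slr1 minus gid2-1 was 5.37 ± 0.13, limma adjusted p = 4.1e-13. Its probe set can bind related transcripts. The array's table pairs a further, dim probe set with both LOC4326757 and LOC4342552, the gene next to LOC4342551. That probe set was not used here for any member. Whether the probe sets used for LOC4326757 and LOC4342551 bind transcripts of each other was not tested.

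LOC4327573 was also among the 4 brightest genes, with 10334, 10238 and 10607 on the T65 arrays, 702, 539 and 468 in gid1-3, 163, 219 and 163 in gid2-1 and 2053, 2555 and 2332 in slr1. Its changes were -4.21 ± 0.14 in gid1-3, -5.85 ± 0.14 in gid2-1 and -2.17 ± 0.14 in slr1. LOC4328018 measured 2001, 2368 and 2175 on the T65 arrays, 54.0, 168 and 64.2 in gid1-3, 43.2, 24.8 and 26.1 in gid2-1 and 676, 626 and 699.9 in slr1, with a gid2-1 mean below the reporter level and a difference of at least 41.8-fold there. LOC4328240 and LOC4346580 had the same order of lines. LOC4328240 gave 1194, 1117 and 1026 on the T65 arrays, 90.1, 102 and 79.7 in gid1-3, 49.3, 26.3 and 18.6 in gid2-1 and 178, 157 and 205 in slr1, the gid2-1 mean being below the reporter level. LOC4346580 gave 2907, 2786 and 2781 on the T65 arrays, 237, 257 and 288 in gid1-3, 139, 86.4 and 129.6 in gid2-1 and 604, 540.5 and 398 in slr1. In both the lines did not overlap, and all differences between their mutants were called.

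The other genes of the brightest 4 were LOC4329532 and LOC4351698. LOC4329532 had 10439.7, 10881 and 10681 on the T65 arrays, 4132, 4378 and 4213 in gid1-3, 4084, 4069 and 4138 in gid2-1 and 4913, 4964 and 5249 in slr1, a level shared by both gid mutants with slr1 slightly above. A second probe set of this gene gave -0.86, -0.03 and -1.47 against T65, another order of the lines. LOC4351698 had 10315, 10398 and 10769 on the T65 arrays, 4102, 3892 and 4058 in gid1-3, 1291, 1304 and 1282 in gid2-1 and 4145, 4048 and 4109 in slr1. There gid1-3 and slr1 overlapped and gid2-1 was lower than gid1-3 (1.64 ± 0.05, limma adjusted p = 4.1e-12).

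Some genes were lowest by far in a single mutant. LOC4348272 gave 2564, 2765 and 2298 on the T65 arrays, 1158, 1066 and 1122 in gid1-3, 41.0, 66.3 and 40.5 in gid2-1 and 1194, 1156 and 1223 in slr1. Its gid1-3 and slr1 signals were not called apart (slr1 minus gid1-3 0.09 ± 0.15, limma adjusted p = 0.72), while gid2-1 was lower than gid1-3 (limma adjusted p = 1e-11). The gid2-1 mean was below the reporter level, which puts it at least 21.4-fold below gid1-3 and at least 48.7-fold below T65. LOC4339759 was similar, with 2936, 2818 and 2937 on the T65 arrays, 890.2, 847 and 915 in gid1-3, 49.1, 42.2 and 52.1 in gid2-1 and 1262, 1263 and 1282 in slr1. It too was below the reporter level in gid2-1 alone, at least 17.0-fold under gid1-3 and 55.6-fold under T65. A second LOC4339759 probe set, which can bind related transcripts, gave -1.88 in gid1-3, -5.4 in gid2-1 and -0.78 in slr1. In slr1 that falls short of the limit of the rule. LOC4337500 gave 2871, 2721 and 2577 on the T65 arrays, 1239, 1146 and 1228 in gid1-3, 103, 149.8 and 137 in gid2-1 and 469, 474 and 398 in slr1, lowest in gid2-1 and next in slr1 (slr1 minus gid1-3 -1.43 ± 0.12, limma adjusted p = 1.5e-07).

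Other genes were lower in gid1-3 than in gid2-1. LOC4337229 measured 5485, 5567 and 5255 on the T65 arrays, 402, 425.0 and 399 in gid1-3, 2536, 2660.1 and 2600.4 in gid2-1 and 1443, 1319 and 1331 in slr1. Its lines did not overlap, and gid1-3 minus gid2-1 was -2.67 ± 0.06, limma adjusted p = 2.8e-13. The probe set used can bind related transcripts. Another LOC4337229 probe set with that mark gave -3.01, -1.01 and -1.46 in gid1-3, gid2-1 and slr1. A dimmer one without it gave -2.09, -0.67 and -2.47, with slr1 lowest. LOC4349191 gave 2238, 2176 and 1813 on the T65 arrays, 84.9, 57.4 and 80.4 in gid1-3, 373, 474 and 460.4 in gid2-1 and 565, 501 and 521 in slr1, with gid1-3 minus gid2-1 at -2.57 ± 0.14, limma adjusted p = 4.2e-09. Both genes were added after their values were seen. The 4 genes with the lowest fitted differences, LOC4342810, LOC4330044, LOC4334789 and LOC4329175, all had gid1-3 means below the reporter level, so their differences are bounds and are not ranked. LOC4342810 measured 537, 524 and 517 on the T65 arrays, 6.18, 6.36 and 3.54 in gid1-3, 176, 274 and 242 in gid2-1 and 254, 217 and 245 in slr1. The gid2-1 and slr1 arrays overlapped (0.07 ± 0.25, limma adjusted p = 0.89), and gid1-3 was below gid2-1 (limma adjusted p = 4.4e-10). The gid1-3 signal was at least 4.34-fold below gid2-1 and at least 10.1-fold below T65. LOC4330044 gave 1204, 1265 and 1235 on the T65 arrays, 49.7, 8.30 and 45.7 in gid1-3, 274, 285 and 286 in gid2-1 and 486, 499.9 and 521 in slr1, and in gid1-3 it was at least 5.39-fold below gid2-1 and 23.6-fold below T65. LOC4334789 and LOC4329175 were dimmer, with gid1-3 means of 9.04 ± 5.52 and 11.6 ± 9.55 (mean ± SD, n = 3), at least 1.5-fold and 1.58-fold below gid2-1.

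Like ASMT, LOC4326664 and LOC4328929 were among the 15 genes lowest in slr1. LOC4326664 had 251, 282 and 249 on the T65 arrays, 111, 129 and 141 in gid1-3, 123, 108 and 159 in gid2-1 and 48.1, 16.9 and 69.5 in slr1. It was the only gene whose slr1 mean lay below the reporter level, and it was lower in slr1 than in gid1-3 (limma adjusted p = 0.0024), by at least 2.45-fold. LOC4328929 gave 3503, 3590.2 and 3943 on the T65 arrays, 1100.1, 1091 and 1058 in gid1-3, 892, 806 and 767 in gid2-1 and 558, 522 and 518 in slr1. The lines did not overlap, and slr1 was below gid1-3 (-1.02 ± 0.07, limma adjusted p = 2.2e-08) and gid2-1 (-0.62 ± 0.07, limma adjusted p = 5.7e-06). LOC4332175 and LOC4345923 were lower in slr1 than in gid2-1 (slr1 minus gid2-1 -1.19 ± 0.14 and -1.07 ± 0.18) but overlapped between slr1 and gid1-3. In all, 14 of the 139 genes lay below the reporter level in gid1-3, 12 in gid2-1, 1 in slr1 and none in T65.

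Relatives of the named genes differed from T65 in both directions. Families were taken whole by symbol, and each relative was tested against T65 with limma over all probe sets. Over all genes with a T65 mean of at least 7.6, 36.4% were called lower and 29.2% higher in gid1-3, 32% and 28.5% in gid2-1, and 28% and 19.9% in slr1. Among the 17905 genes, 8% were called lower in all 3 mutants and 7.76% higher, and among those with that T65 mean 10.4% and 8.87%. Of 22 measured HAK potassium transporters, 8 were lower and 7 higher in gid1-3, 5 and 7 in gid2-1, and 7 and 3 in slr1. Besides HAK27, HAK18 was called lower in all 3 mutants (-1.21, -1.28 and -0.57), and HAK9 higher (0.48, 1.14 and 0.31). Of 8 ammonium transporters, 4 were lower and 2 higher in gid1-3, 3 and 2 in gid2-1, and 5 and 1 in slr1. AMT1 (-0.63, -1.39 and -1.39) and AMT3-1 (-0.63, -0.64 and -1.09) were called lower in all 3 beside AMT1-2, and AMT2-1 was called higher (0.36, 0.89 and 0.42). With spike centring the HAK counts were 10 and 2, 5 and 3, and 7 and 1, and those of the ammonium transporters 4 and 1, 3 and 2, and 5 and 0. Of 4 CAX exchangers, CAX1a was lower in all 3 mutants and CAX1b was called higher, with changes of 2.00, 1.82 and 1.02. The signs of these changes held under every scaling tried, but calls were lost under median or spike centring for HAK9 and AMT2-1 and under quantile or median scaling for AMT3-1.

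Among 12 SWEET genes, 7 were lower and 1 higher in gid1-3, 5 and 2 in gid2-1, and 3 and 4 in slr1, or 8 and 1, 8 and 1, and 3 and 3 with spike centring. SWEET15 was called lower in all 3 mutants beside SWEET2B (-1.91, -2.53 and -2.17), and SWEET2A was called higher (0.88, 0.42 and 1.03), in gid2-1 not with spike centring. Of 7 GRXC glutaredoxins, GRXC7 alone was lower in all 3, while GRXC10 (2.04, 1.83 and 2.44) and GRXC15 (2.22, 1.78 and 2.68) were called higher in each. The wider list of nutrient and sugar transporters held 113 measured genes, 4 of them among the 139. The symbols of PHO1-2, DUR3 and MHX1 were not in this list, so it does not count every transporter among the members. Of the 113, 42 were called lower and 21 higher in gid1-3, 26 and 30 in gid2-1, and 34 and 16 in slr1, with median changes of -0.24, 0.05 and -0.11. The split in gid2-1 turned to 32 lower and 20 higher with arrays centred on the spiked controls and to 27 and 25 with median centring. The medians over all genes with a T65 mean of at least 7.6 were -0.06, -0.03 and -0.07.

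The wider lists were matched by symbol or synonym, so they cannot place the 118 members without a name, and they miss RS2 and CHARK. Such matching can also bring in genes of other kinds. The transcription factor list holds KIN13A, for example, and shares a BC1 gene with the cell wall list. None of the 30 cytochrome P450 genes, 84 cell wall genes, 162 protein kinases and calcium sensors, 64 genes of hormone metabolism and transport, 11 genes of lipid transfer, wax and cutin or 30 photosynthesis genes of the lists was a member. With 0.776% of all genes represented being members, a list of this size without one says nothing particular about it. Of 207 genes in the transcription factor list, MYBAS2 and HSF05 were members. Of the genes in that list, 80 were called lower and 46 higher in gid1-3, 59 and 59 in gid2-1, and 45 and 41 in slr1, or 101 and 24, 79 and 35, and 47 and 27 with spike centring. Of 45 genes of starch and sucrose metabolism, SS1 was a member, and 14 were lower and 12 higher in gid1-3, 18 and 9 in gid2-1, and 12 and 8 in slr1, or 22 and 4, 21 and 6, and 12 and 6 with spike centring. Of 57 redox and detoxification genes, GRXC7 was a member, and 27 were called higher and 16 lower in gid1-3, 20 and 19 in gid2-1, and 19 and 14 in slr1, which turned to 14 and 23, 6 and 23, and 9 and 14 with spike centring.

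Some of the 139 genes were neighbours in the genome. In the order of protein-coding genes, 11 of them lay next to another member, in 5 runs. Counted from both sides, 12 of 189 measured neighbouring positions were members, which is 6.35%, beside 0.776% of all genes represented and 1.03% of those with a T65 mean of at least 7.6. The longest run held LOC4331945, LOC4331946 and LOC4331947. LOC4331945 measured 9669, 9819.9 and 9860.4 on the T65 arrays, 765, 691 and 762 in gid1-3, 2116, 2484 and 1928 in gid2-1 and 2922, 3260.5 and 3140.0 in slr1. LOC4331946 gave 3473, 3456 and 3559.7 on the T65 arrays, 419, 399 and 354 in gid1-3, 607, 610.0 and 475 in gid2-1 and 686, 724 and 723 in slr1. In both, gid1-3 was lowest and no arrays of different lines overlapped. LOC4331947 was dimmer, with 367, 336 and 331 on the T65 arrays, 39.9, 64.6 and 23.9 in gid1-3, 50.9, 26.8 and 35.5 in gid2-1 and 42.6, 79.0 and 81.8 in slr1, and no difference between its mutants was called (limma adjusted p from 0.13 to 0.90). The gid1-3 and gid2-1 means of LOC4331947 lay below the reporter level, so its mutants are not resolved from each other there. In a further run ASMT3 lay beside LOC4347994, which measured 842, 898 and 810.0 on the T65 arrays, 131, 89.7 and 129 in gid1-3, 34.7, 41.4 and 57.9 in gid2-1 and 199.7, 159 and 155 in slr1. The gid2-1 mean of LOC4347994 lay below the reporter level. Neighbours that were not members were counted as well. Of 115 with a T65 mean of at least 7.6, 42 (36.5%) had lower means in all 3 mutants, beside 30.8% of all such genes, and their median changes were -0.18, -0.16 and -0.13. Whether neighbouring probe sets bind transcripts of each other was not tested.

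**Figure D4:**
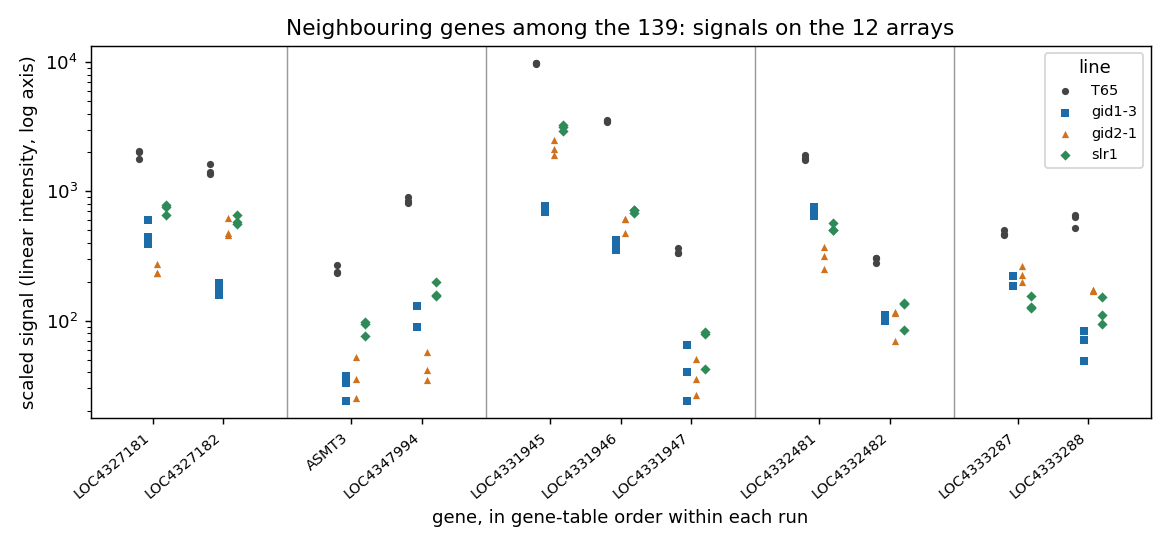
Signal of each array (y axis, linear intensity on a log axis) for the 11 genes that lie next to another of the 139, in gene order within the 5 runs (x axis, runs divided by lines), in T65 (circles), gid1-3 (squares), gid2-1 (triangles) and slr1 (diamonds). Genes of a run differ in brightness and in the order of the mutants, for example LOC4327181, lowest in gid2-1, and LOC4327182, lowest in gid1-3.

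Some of the genes had other probe sets, whose changes did not enter the rule. Of the 139 genes, 20 had 27 further probe sets, and 21 of these had lower means than T65 in all 3 mutants. Of the 17 that reached a T65 mean of 7.6, all 17 were lower in each mutant and 11 were at least 1 log2 unit lower in each. Of all genes with that T65 mean, 30.8% had lower means in all 3 mutants. The limit reads T65, where the members are high by the rule, so it favours probe sets that are lower in the mutants. All these further probe sets share the RNA and arrays of the probe sets used. The probe sets of 18 members (12.9%) carry a mark for binding related transcripts, against 17.1% of all genes represented. Among the members with a name these are SWEET2B, DUR3, CAX1a and PSY2. For DUR3, CAX1a and PSY2 there was no further probe set to compare.

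At the limits of the rule the values ran on without a gap. Just inside, the smallest of the 3 changes was -1.0 for HAK27, -1.001 for CHARK and -1.002 for LOC4352550. The T65 arrays of LOC4352550 gave 961, 1014.5 and 2645.5, so its T65 mean leans on the highest of them. Just outside, the smallest change was -0.998 for LOC9269133 and LOC4326375 and -0.995 for LOC4340840. The lowest T65 mean inside was 7.615 (AMT1-2), and LOC4332473, with 7.554, was outside.

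The transcripts of the pathway and the markers of tissue gave the setting of these values. GID1 signals were 4442 to 4537 for T65, 6238 to 6568 for gid1-3, 5628 to 6457 for gid2-1 and 2456 to 2467 for slr1. In the same order of lines, SLR1 signals were 1235 to 1355, 820.1 to 839, 1103 to 1177 and 1473 to 1631. These levels do not show whether a mutation is present. Of 9 measured markers of green shoots, 8 lay above the reporter level in T65, and their summed signal was 86601 to 92576 for T65, 100954 to 109761 for gid1-3, 65571 to 84345 for gid2-1 and 92270.4 to 117976 for slr1. Summed signals of 7 root markers were 1641 to 1726 for T65, 1672 to 1811 for gid1-3, 2328 to 2378 for gid2-1 and 2560.4 to 2708 for slr1. Single markers went opposite ways: from T65 to gid2-1 mean LSI1 signals were 544 and 1643 and those of IRO2 705 and 292, and among the green shoot markers those of PSAG were 4946 and 814 and those of GLO1 6886 and 9186. The meristem and stem markers OSH1 and OSH71 summed to 1681 to 1812 for T65, 752 to 788 for gid1-3, 1805 to 2001 for gid2-1 and 660.1 to 759 for slr1. None of 4 anther markers was above the reporter level in T65, and 3 of 4 seed markers were, with sums of 655 to 744 in T65 and 919 to 996 in slr1. The part of tissue make-up in the differences of the 139 genes was not tested, and in whole shoots fewer cells of a type and less RNA per cell cannot be told apart.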

How the data were processed

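Signals were measured in 12 shoot samples, 3 per line, with a rice array of Affymetrix. Total RNA was prepared with a column kit and made into biotinylated cRNA, per the labels' protocols. The deposited values are intensities, linear probe-set signals. Every array had the same mean, 500.1, once the lowest and highest 2% of probe sets were set aside, as after scaling, and the software and scaling method are not given in the sources used here. No detection calls came with the table, so the precision rests on the 3 arrays per line and depth does not apply. Samples were grouped by their titles.

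Of 57381 probe sets, 187 controls were left out. Signals below 1 were set to 1 and log2 was taken. The other 57194 probe sets were fitted with limma 3.58.1 in R 4.3.3 (lmFit, then eBayes with a trend), with 1 mean per line over all arrays and Benjamini-Hochberg adjustment over all probe sets, after a test on simulated data. Tables were made with Python 3.11.15 and pandas 2.3.3. The array's table paired 22436 probe sets with 1 gene, 95 with several and 34663 with none. The reference gene table (assembly ASM3414082v1) gave names and neighbours only, and no sequences were used.

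Named genes were GID1, SLR1, all members with a name, the 6 with the lowest mean change, the 4 brightest, the 4 with the largest called difference in each direction between 2 mutants, and those at the limits. LOC4351087, the neighbouring genes and relatives of named genes were added for what the tables showed. The members and lists were chosen with earlier results of these data known. Alternatives were quantile normalization, centring on medians or on spiked controls, a pseudocount of 16, averaged probe sets, bright probe sets only, no trend, only the lines compared, a replicate block, a 2-fold size, no cross-hybridizing probe sets, each array left out, a limit of 1.5 log2 units and no minimum in T65.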

Additional observations from a re-analysis of the deposited data

How the results depend on the processing

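Spike centring moved the median of all probe sets against T65 to -0.28, -0.20 and -0.09 in gid1-3, gid2-1 and slr1, and put that of slr1 0.19 above gid1-3 and 0.12 above gid2-1. The rule gave 136 genes after quantile normalization, 146 with median centring, 204 with spike centring, 129 with a pseudocount of 16, 129 with averaged probe sets and 197 with no T65 minimum. It gave 39 with a limit of 1.5 log2 units and 136 to 145 with 1 array left out, which lost 0 to 8 of the 139. The called counts of gid1-3 against gid2-1, slr1 against gid1-3 and slr1 against gid2-1 became 50, 46 and 49 at 2-fold, by construction. With the replicate number as a block they were 92, 93 and 87. These numbers do not pair the samples: only 4 of 18 correlations of residuals between arrays of one number were over 0.1 (range -0.28 to 0.21), and 4 of 12 arrays correlated best with their own number. With 1 array left out the counts were 82 to 90, 91 to 96 and 83 to 88. Other settings over all members gave 81 to 92, 78 to 99 and 77 to 93, and slr1 remained mostly higher, 68 to 91 genes against 8 to 15 over gid1-3 and 64 to 82 against 11 to 18 over gid2-1. Without cross-hybridizing probe sets, 121 members remained, with 75, 82 and 73 called. Of 87 called differences of the named members, 76 were kept under all 20 settings. With averaged probe sets LOC4329532 reversed, to -0.18 (limma adjusted p = 0.019) for slr1 minus gid1-3 and -0.57 (2.2e-06) for slr1 minus gid2-1. Signals under the reporter level limit the size of a difference, and 3 arrays per line limit the precision.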
